A study of Rattus norvegicus with 2 samples.

Results

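Messenger RNAs for 10 signals of the glial inflammatory response were compared in rat oligodendrocyte precursor cells (OPCs). The comparison was of OPCs that carried a Slit1 construct with OPCs that carried vector. The genes were taken by symbol from the deposited table of 17455 genes, and all 10 were found: Lif, Cntf, Il6, Cxcl1, Cxcl2, Cxcl6, Ccl2, Csf1, Lcn2 and C3. The Slit1 group was 1 library from cells given Slit1, a secreted ligand of Robo receptors, and the vector group was 1 library from cells given vector alone. Both groups were labelled wild type and were transfected with a Lonza kit, and age, strain and time of harvest were not given in the sources used here. With 1 library in each group no difference had a replicate check, no test was made, and the 95% intervals below cover counting error only.

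These proteins carry messages between glia, neurons and immune cells. Lif, Cntf and Il6 belong to the interleukin-6 family, which signals through the shared receptor chain gp130, the JAK kinases and STAT3. In the central nervous system, LIF and CNTF are known to support the survival and maturation of oligodendrocytes and to drive precursors or astrocytes toward an astrocytic, GFAP-rich state. Cxcl1, Cxcl2 and Cxcl6 encode CXC chemokines that attract neutrophils through the receptor CXCR2, and CXCL1 is also known to slow the migration of OPCs in the spinal cord. Ccl2 encodes the chief attractant of monocytes, Csf1 a survival factor of microglia, Lcn2 an iron-siderophore carrier secreted by reactive astrocytes, and C3 the central protein of the complement cascade. Many of these genes are known to be switched on by the transcription factors NF-kB and C/EBP.

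Promoters of the chemokine genes are shown because Cxcl1, Cxcl2 and Cxcl6 were all lower in the Slit1 library, that of Lcn2 because it was higher, and that of Il6 because it was nearly silent. Sequences were those of RefSeq for the assembly GRCr8, and windows were found for 7 of the 10 genes (Cxcl1, Cxcl2, Cxcl6, Il6, Lcn2, C3 and Cntf). Each line gives the 250 bases before the annotated start of the gene, 5′ to 3′ along the gene, and capitals mark every match to the NF-kB-like letters GGNNTTTCC on either strand.

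Cxcl1, GRCr8 chr14:17479322-17479571, minus strand: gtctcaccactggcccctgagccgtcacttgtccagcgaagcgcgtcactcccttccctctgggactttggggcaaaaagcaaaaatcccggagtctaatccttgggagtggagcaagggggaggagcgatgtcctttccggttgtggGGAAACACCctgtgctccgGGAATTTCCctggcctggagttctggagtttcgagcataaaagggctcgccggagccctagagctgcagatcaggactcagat

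Cxcl2, GRCr8 chr14:17467256-17467505, minus strand: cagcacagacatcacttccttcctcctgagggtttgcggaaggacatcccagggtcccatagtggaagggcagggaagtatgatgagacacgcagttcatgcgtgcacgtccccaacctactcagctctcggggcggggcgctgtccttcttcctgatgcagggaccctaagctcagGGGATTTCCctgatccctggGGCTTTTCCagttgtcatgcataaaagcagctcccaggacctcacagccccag

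Cxcl6, GRCr8 chr14:17596418-17596667, minus strand: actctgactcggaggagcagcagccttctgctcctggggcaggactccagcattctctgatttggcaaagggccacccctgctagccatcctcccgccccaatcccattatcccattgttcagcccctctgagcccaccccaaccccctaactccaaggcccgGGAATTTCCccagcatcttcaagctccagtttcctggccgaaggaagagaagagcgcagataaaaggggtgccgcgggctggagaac

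Il6, GRCr8 chr4:5894576-5894825, minus strand: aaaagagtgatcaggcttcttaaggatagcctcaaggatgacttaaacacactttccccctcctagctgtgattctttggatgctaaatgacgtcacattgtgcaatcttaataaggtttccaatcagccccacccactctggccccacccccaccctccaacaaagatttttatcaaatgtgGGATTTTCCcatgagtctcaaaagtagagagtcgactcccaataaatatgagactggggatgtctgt

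Lcn2, GRCr8 chr3:36081781-36082030, minus strand: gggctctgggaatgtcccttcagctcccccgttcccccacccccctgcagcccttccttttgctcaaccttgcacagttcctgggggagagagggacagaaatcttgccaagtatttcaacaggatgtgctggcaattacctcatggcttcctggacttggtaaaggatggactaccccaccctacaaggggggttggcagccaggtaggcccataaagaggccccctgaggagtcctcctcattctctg

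The NF-kB-like letters were present in 4 of the 7 windows, counting 250 bases before and 50 after the start. Apart from Il6 these were the CXC genes of the same cluster on chromosome 14, which are not independent of one another. No window was found for Lif, Ccl2 or Csf1, and whether the letters go with a direction of change was not tested. They lay 83 to 75 bases before the start in Cxcl1, which also had a match on the other strand 102 to 94 bases before it. In Cxcl6 the match lay 87 to 79 bases before the start, with the same letters as the nearer match of Cxcl1. Cxcl2 had matches 73 to 65 and 53 to 45 bases before its start, and Il6 had one 67 to 59 bases before its start. Of all 33469 RefSeq windows 6.05% held these letters, and of the 12277 windows of genes that averaged 1 TPM or more (TPM, transcripts per 1000000) 6.08% did. C/EBP-like letters (TTNNGNAA, either strand) were in the windows of Cxcl2, Cxcl6, Il6, Lcn2, C3 and Cntf, in 41.3% of all windows and in 30.6% of the 12277. AP-1-like letters (TGANTCA, either strand) were in that of Cntf, in 7.33% of all windows and in 4.67% of the 12277. STAT-like letters (TTCNNNGAA, either strand) were in none of the 7, in 8.87% of all windows and in 6.74% of the 12277. No matches of different motifs overlapped in these windows. A match shows only that the letters are there, and a lack of a match does not show that no site is there.

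The libraries held 18998770 estimated counts in Slit1 and 18817462 in vector. Slit1 itself was at 229.7 TPM in the library labelled Slit1 and at 1.70 TPM in vector. All 8 listed OPC markers were present, 3 of them called higher and 0 lower, with a summed level of 3024 TPM in Slit1 and 2378 TPM in vector. Those 3 carried the rise in the sum. The median difference of log2(TPM + 1), Slit1 minus vector, was 0.05 for the 8 markers, with 6 above 0 and 2 below it. Ptprz1, which was below 0, had 688 TPM in Slit1 and 914 TPM in vector. Pdgfra had 41.4 TPM in Slit1 and 40.25 TPM in vector, and Cspg4 had 10.3 TPM in Slit1 and 10.1 TPM in vector. The markers called higher were Sox10, Bcas1 and Gpr17. Sox10 had 218 TPM in Slit1 and 71.4 TPM in vector. Bcas1 had 939 TPM in Slit1 and 332 TPM in vector, and Gpr17 had 263 TPM in Slit1 and 109.8 TPM in vector. Whether these 3 stood for OPCs or for cells further along the oligodendrocyte lineage was not tested. Astrocyte genes were abundant beside them: 10 of 11 listed markers averaged 1 TPM or more, their summed level was 9544 TPM in Slit1 and 8511 TPM in vector, and Gfap alone was at 6130.1 TPM in Slit1 (rank 7 by level) and 4694 TPM in vector (rank 9). Gfap carried the rise in that sum. The median difference of the 10 astrocyte markers was -0.14, with 6 below 0 and 4 above it. Within that list Slc1a2 (94.1 TPM in Slit1 and 215 TPM in vector) and Gja1 (295.7 TPM in Slit1 and 506 TPM in vector) were at least 1.5-fold lower. The 8 oligodendrocyte markers were all called higher, and their summed level was 3808 TPM in Slit1 and 851 TPM in vector. Microglia and macrophage markers were near 0: 8 of 14 were in the table and 2 averaged 1 TPM or more, the sum was 6.08 TPM in Slit1 and 3.89 TPM in vector, Itgam had 1 count in Slit1 and 0 in vector, and Trem2 had 0 in Slit1 and 1 in vector. Cd68, which made up most of the sum in Slit1, was the 1 of them called higher, with 39 counts in Slit1 and 19 in vector. None of 6 endothelial markers reached 1 TPM (2.22 TPM summed in Slit1 and 1.45 TPM in vector), with Cldn5 at 0 counts in vector. Of 8 fibroblast and pericyte markers 3 did (22.4 TPM summed in Slit1 and 23.3 TPM in vector, with Dcn at 0 in vector). All 7 neuronal markers did (276 TPM summed in Slit1 and 247.7 TPM in vector). Gap43 and Tubb3 carried the rise in the neuronal sum. The median difference of the 7 neuronal markers was -0.10, with 4 below 0 and 3 above it. In RNA of a whole culture, fewer cells of a type and less RNA per cell cannot be told apart, and the part of cell composition in the values below was not tested.

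Lif and the 3 CXC chemokines were lower in the Slit1 library, Lcn2 was higher, and Ccl2 and Csf1 were within 1.5-fold of their vector levels. A gene was called higher or lower when log2(TPM + 1) in Slit1 minus that in vector reached 1.5-fold, among the 13175 genes that averaged 1 TPM or more. The added 1 shrinks the differences of low genes. Of the 10 genes 9 were at or above that mean. Lif, Cxcl1, Cxcl2 and Cxcl6 were called lower, 4 of 9, where 4.84% of all 13175 genes were. Lcn2 was called higher, 1 of 9, where 3.74% of all genes were. These shares are also the background for every list count in TPM below. No member reached 2-fold in either direction on this scale, a size that 0.645% of all genes reached downward and 1.24% upward. The median difference of the 9 genes was -0.15, and that of all genes was -0.05. The genes were not selected at random: they were picked with earlier results of these libraries known, so their count against the background is a description.

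**Figure D1:**
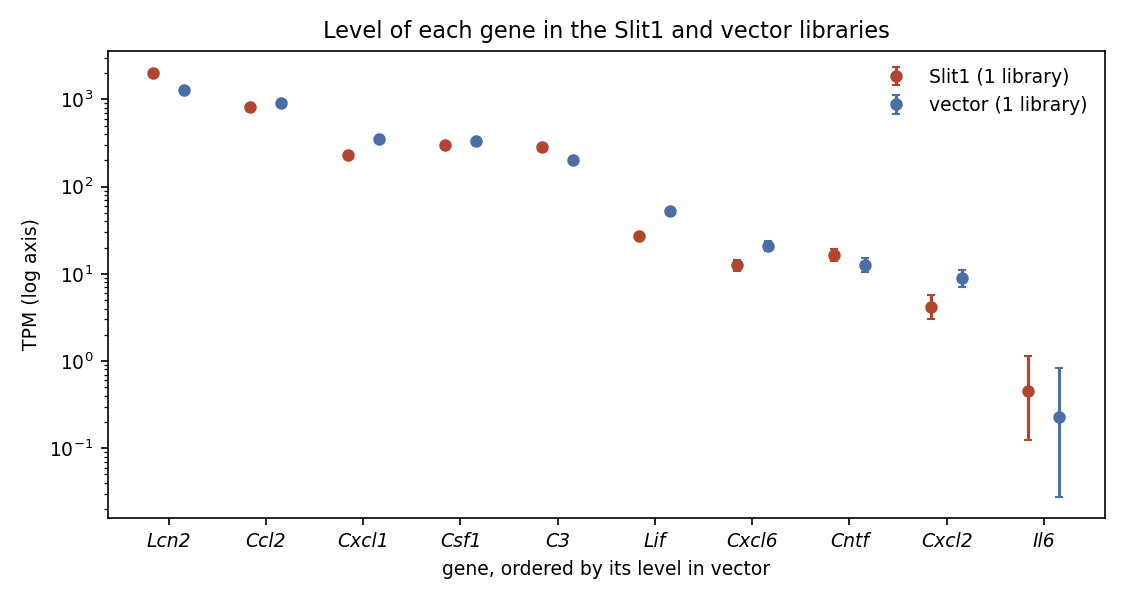
Level of each gene in TPM (log axis) in the Slit1 library (red, left) and the vector library (blue, right), 1 library each, with bars for the exact 95% Poisson interval of the counts. Levels run from Lcn2 (2034 TPM in Slit1 and 1277 TPM in vector) down to Il6 (0.45 TPM in Slit1 and 0.23 TPM in vector), and Lif, Cxcl1, Cxcl2 and Cxcl6 sit lower in Slit1.

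The 10 genes were expressed at widely different levels, as the plot of levels shows. In the Slit1 library the order was Lcn2, Ccl2, Csf1, C3, Cxcl1, Lif, Cntf, Cxcl6, Cxcl2 and Il6. In the vector library it was Lcn2, Ccl2, Cxcl1, Csf1, C3, Lif, Cxcl6, Cntf, Cxcl2 and Il6. Cxcl1 stood above Csf1 and C3 in vector and below both in Slit1, and Cxcl6 and Cntf also stood in opposite orders. Counting intervals of neighbours overlapped for Cntf (13.99 to 19.3 TPM) and Cxcl6 (10.9 to 14.6 TPM) in Slit1, and for Cntf (10.4 to 15.2 TPM) and Cxcl2 (7.15 to 11.2 TPM) in vector. Those of Csf1 (293.8 to 305 TPM) and C3 (280.4 to 290.3 TPM) in Slit1 did not overlap. In vector those of Cxcl1 (338.15 to 364.9 TPM) and Csf1 (325.7 to 338.08 TPM) lay end to end without overlap. Lcn2 ranked 34 by level among the 13175 genes in Slit1 and 61 in vector. Ccl2 ranked 149 in Slit1 and 117 in vector. All 10 genes together took 0.247% of the estimated counts in Slit1 and 0.208% in vector.

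Lif, the leukemia inhibitory factor, was lower in the Slit1 library in every unit, by an amount that depended on the unit. It had 27.1 TPM in the Slit1 library and 53.2 TPM in vector. That was 1.96-fold lower, with a counting interval of 1.80 to 2.13, and 0.865% of all genes differed as far downward. In estimated counts the gap was narrower, 933 in Slit1 and 1304 in vector, which in counts per 1000000 (CPM) was 1.41-fold lower. The counts and FPKM of Lif (FPKM, fragments per kilobase of transcript and 1000000 fragments) imply a transcript length of 3.82 kb in Slit1 and 2.83 kb in vector. TPM and FPKM divide the counts by such a length and CPM does not. A ratio of lengths as large as the 1.35 of Lif was found in 16 of 13158 genes (0.122%), while 5% of genes lay above 1.06. How the counts were assigned to transcripts was not given in the sources used here.

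Cntf was not lower, and Il6 was too scarce for a direction to be read. Cntf, which encodes a factor stored in glia and released on injury, had 16.5 TPM in Slit1 and 12.6 TPM in vector, from 155 counts in Slit1 and 114 in vector. It was 1.31-fold higher with a counting interval of 1.02 to 1.68, below the 1.5-fold limit. Il6, the founding member of the family, had 4 counts in Slit1 and 2 in vector, or 0.45 TPM in Slit1 and 0.23 TPM in vector. Its ratio of 1.96 had a counting interval of 0.280 to 21.6, so no difference was detectable at this depth. Its promoter, printed above, holds NF-kB-like letters as those of the CXC genes do.

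Of all 9 listed ligands of the family, Lif, Cntf and Il6 included, 6 averaged 1 TPM or more, 3 were called lower and 0 higher, with a median of -0.51. In FPKM 1 was lower, which was Lif, and in CPM 0 were. The median was -0.42 in FPKM, -0.41 in CPM and -0.34 in TPM with a pseudocount of 5. Without Lif, Cntf and Il6, 2 of 4 measured ligands were called lower in TPM and 0 in FPKM or CPM. Clcf1, a ligand of the CNTF receptor, had 32.5 TPM in Slit1 and 43.7 TPM in vector. Il11 had 1.85 TPM in Slit1 and 3.51 TPM in vector, from 32 counts in Slit1 and 53 in vector. Ctf1, cardiotrophin 1, had 2.93 TPM in Slit1 and 2.49 TPM in vector. Osm (oncostatin M) had 1.75 counts in Slit1 and 7.01 in vector, and Il27 had 1.23 in Slit1 and 0 in vector.

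The measured receptors and signal carriers of the family were within 1.5-fold, apart from Socs1, and 12044 of all 13175 genes were within it too. Of 7 receptor genes 6 averaged 1 TPM or more and 0 were called in either direction, with a median of -0.24. Il6st, which encodes gp130, had 99.6 TPM in Slit1 and 117.3 TPM in vector, and Lifr, the LIF receptor, had 15.4 TPM in Slit1 and 18.4 TPM in vector. Osmr, the oncostatin M receptor, had 48.0 TPM in Slit1 and 66.9 TPM in vector, the largest difference among the 6 measured receptors, and Il6r had 5.68 TPM in Slit1 and 7.81 TPM in vector. Cntfr, the CNTF receptor, had 71.2 TPM in Slit1 and 62.5 TPM in vector, and Il11ra1 had 37.7 TPM in Slit1 and 35.0 TPM in vector. Il31ra had 1.11 counts in Slit1 and 0 in vector. Among 16 measured JAK, STAT and feedback genes 1 was called lower and 0 higher (median -0.14). The called gene was Socs1, an inhibitor of JAK kinases, with 2.88 TPM in Slit1 and 6.39 TPM in vector, from 29.6 counts in Slit1 and 63.0 in vector, and it lost the call when a mean of 5 TPM was required and with a pseudocount of 5. Jak1 had 112.0 TPM in Slit1 and 142.0 TPM in vector, Jak2 had 36.0 TPM in Slit1 and 42.8 TPM in vector, and Pim1, a STAT-induced kinase, had 3.64 TPM in Slit1 and 4.71 TPM in vector.

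**Figure D2:**
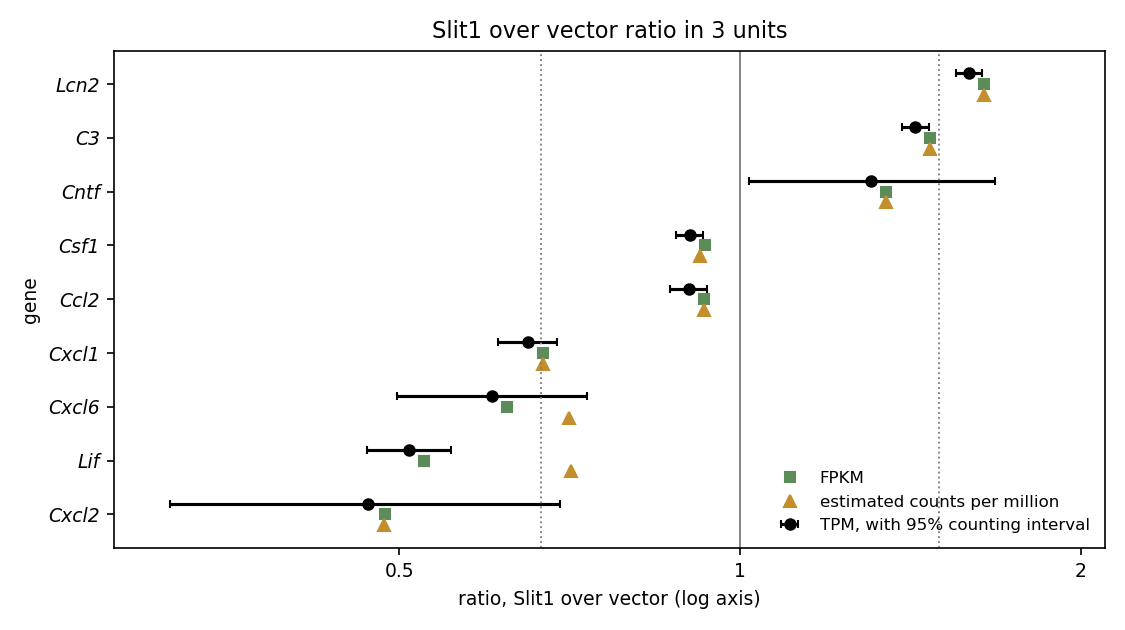
Ratio of Slit1 over vector (log axis) for the 9 genes that averaged 1 TPM or more, in TPM with its 95% counting interval (black), FPKM (green) and CPM (yellow); dotted lines mark 1.5-fold. Lif lies at 0.510 in TPM and 0.709 in CPM, while Lcn2 stays above 1.5-fold in all 3 units.

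The 3 neutrophil-attracting chemokines were lower at very different levels. Cxcl1 had 228 TPM in Slit1 and 351 TPM in vector, from 1815 counts in Slit1 and 2685 in vector. It was 1.54-fold lower with an interval of 1.45 to 1.64, an interval that includes the 1.5-fold limit, and 1.49-fold lower in FPKM and in CPM. Cxcl6 had 12.6 TPM in Slit1 and 20.9 TPM in vector, 1.66-fold lower with an interval of 1.37 to 2.01. Cxcl6 was 1.42-fold lower in CPM, with an implied length of 1.63 kb in Slit1 and 1.44 kb in vector. Cxcl2 had 4.21 TPM in Slit1 and 8.97 TPM in vector, from 40 counts in Slit1 and 81.8 in vector. It was 2.13-fold lower with an interval of 1.44 to 3.19, and of the 3 it alone was called lower in TPM, FPKM and CPM alike. Cxcl2 also had the fewest counts and the widest interval of the 3. The intervals of Cxcl2 and Cxcl6 include the 1.5-fold limit, as that of Cxcl1 does.

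Cxcl3, which RefSeq places between Cxcl1 and Cxcl6 in the same chemokine cluster, differed less. It had 3.70 TPM in Slit1 and 3.96 TPM in vector, from 33.0 counts in Slit1 and 34 in vector. Cxcl1, Cxcl2 and Cxcl3 are similar in sequence, so that reads could be divided between them. Their summed counts were 1888 in Slit1 and 2801 in vector, 1.498-fold lower in CPM with an interval of 1.41 to 1.59. Cxcl1 alone gave 1815 of these counts in Slit1 and 2685 in vector, so the sum mostly repeats Cxcl1. It cannot show how reads were divided between Cxcl2 and Cxcl3, which was not tested. Of the 14 listed CXC ligands 10 averaged 1 TPM or more, 3 were called lower and 1 higher (median -0.17, and -0.37 when a mean of 5 TPM was required), with 2 lower and 0 higher in FPKM and 1 lower and 0 higher in CPM. The lower 3 were all members described here, and none of the other 7 measured ligands was lower by that amount. Cxcl9, an interferon-induced T cell attractant, was the higher one, from 15 counts in Slit1 and 6.94 in vector.

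Ccl2 and Csf1, which recruit and sustain cells of the monocyte and microglia lineage, were abundant and within 1.5-fold in both libraries. Ccl2 had 819.6 TPM in Slit1 and 910.3 TPM in vector, 1.11-fold lower with an interval of 1.07 to 1.153. Csf1 had 299 TPM in Slit1 and 332 TPM in vector, also 1.11-fold lower, with an interval of 1.08 to 1.14. Among all genes 36.3% lay as low as Ccl2 and 36.7% as low as Csf1. None of the 7 measured CC and CX3C ligands was called in either direction (median -0.15; 1 was higher with a pseudocount of 0.1 and with the median gene set to 0). Ccl7, a monocyte attractant, had 286 TPM in Slit1 and 385.6 TPM in vector, and Ccl20, which attracts CCR6-bearing lymphocytes, had 229 TPM in Slit1 and 303 TPM in vector. Ccl27 had 5.41 TPM in Slit1 and 3.84 TPM in vector, and Ccl5 had 7 counts in Slit1 and 2.99 in vector.

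The receptors for these signals were mostly scarce in the culture itself or absent from the deposited table. Of 20 listed chemokine receptors 12 were in the table and 4 averaged 1 TPM or more. Cxcr1, Cxcr2 and Ccr6 were among those not in it, so their levels cannot be read here. Ackr1, a decoy that binds chemokines without signalling, had 21.95 TPM in Slit1 and 14.3 TPM in vector, exactly at the 1.5-fold limit on the log2(TPM + 1) scale and so counted as higher; with a pseudocount of 5 it was not. Cxcr4 had 40.7 TPM in Slit1 and 49.8 TPM in vector, Ackr3 had 3.80 TPM in Slit1 and 4.92 TPM in vector, and Ccr2, the receptor of CCL2, had 2.81 TPM in Slit1 and 3.23 TPM in vector. The median of these 4 was -0.22, but it was 0.15 with a mean of at least 5 TPM and 0.04 with no minimum. Csf1r, the receptor of CSF1, had 1 count in Slit1 and 3 in vector. Il34, the other ligand of that receptor, had 20.1 TPM in Slit1 and 16.7 TPM in vector. Csf2ra had 6.97 TPM in Slit1 and 8.50 TPM in vector, while Csf2, Csf3, Csf2rb and Csf3r stayed at or under 7.52 counts in either library.

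**Figure D3:**
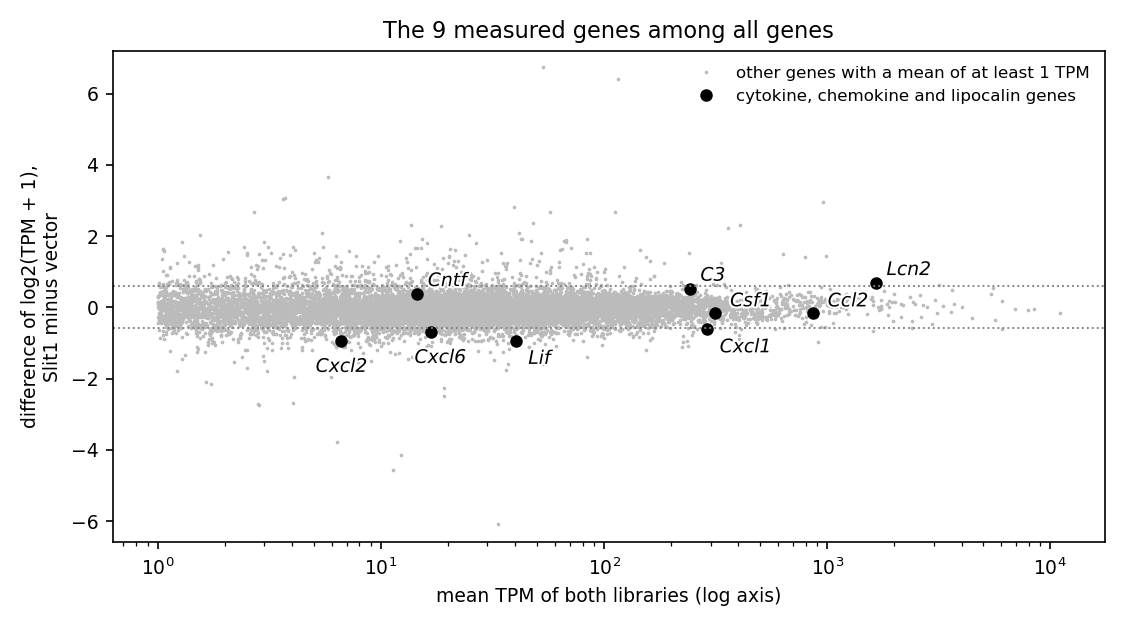
Log2(TPM + 1) in Slit1 minus that in vector, against the mean TPM of both libraries (log axis) for the 13175 genes that averaged 1 TPM or more; black points are the 9 genes described, and dotted lines mark 1.5-fold. Lif (-0.95), Cxcl2 (-0.94), Cxcl6 (-0.68) and Cxcl1 (-0.62) lie under the lower line and Lcn2 (0.67) lies above the upper one.

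Lcn2 was the member with the highest level and the highest ratio of those measured. It had 2034 TPM in Slit1 and 1277 TPM in vector, from 15104 counts in Slit1 and 9112 in vector. It was 1.59-fold higher with an interval of 1.55 to 1.63 in TPM, and 1.64-fold higher in FPKM and in CPM, and 2.73% of all genes lay as high on the log2(TPM + 1) scale. The promoter of Lcn2 printed above held no match to the letters GGNNTTTCC and a C/EBP-like match 191 to 184 bases before the start. Related spellings were not searched, such as the stretch gggaatgtcc near the beginning of its printed line. Whether the Lcn2 promoter holds an NF-kB site was therefore not tested. Slc22a17, which encodes a cell-surface receptor of lipocalin 2, had 542 TPM in Slit1 and 430.2 TPM in vector, 1.26-fold higher with an interval of 1.23 to 1.30. Lrp2 (megalin), another receptor, had 0.56 TPM in Slit1 and 0.43 TPM in vector, and Mc4r had 2 counts in Slit1 and 1 in vector.

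C3 was higher in Slit1 by slightly less than the limit. It had 285 TPM in Slit1 and 199.8 TPM in vector, 1.43-fold higher with an interval of 1.39 to 1.47, and 1.47-fold higher in FPKM and in CPM. Of 18 listed complement components 9 averaged 1 TPM or more, 2 were called higher and 0 lower (median 0.17), with 1 higher in FPKM and 0 with a pseudocount of 5. Cfb, which pairs with C3 in the alternative pathway, had 3.81 TPM in Slit1 and 2.07 TPM in vector, 1.84-fold higher with an interval of 1.27 to 2.70. Masp1, a protease of the lectin pathway, had 23.4 TPM in Slit1 and 14.8 TPM in vector, 1.58-fold higher with an interval of 1.37 to 1.81. C1s, a protease of the classical pathway, had 56.3 TPM in Slit1 and 44.4 TPM in vector.

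Regulators of complement lay on both sides of 0. Of 7 measured regulators and receptors 1 was called higher and 1 lower, with a median of -0.16 that was 0.12 when a mean of 5 TPM was required. Serping1, the inhibitor of C1, had 68.3 TPM in Slit1 and 41.6 TPM in vector, 1.64-fold higher with an interval of 1.49 to 1.81. Clu (clusterin), an inhibitor of the terminal complex, had 1207 TPM in Slit1 and 841.8 TPM in vector. Cd46, in human cells a membrane cofactor for the inactivation of C3b, had 1.83 TPM in Slit1 and 4.09 TPM in vector and was not called lower in CPM (30 counts in Slit1 and 52.4 in vector). Csmd2 had 11.2 TPM in Slit1 and 14.7 TPM in vector. C3ar1, the receptor of the C3a fragment, had 4.91 counts in Slit1 and 7.91 in vector.

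**Figure D4:**
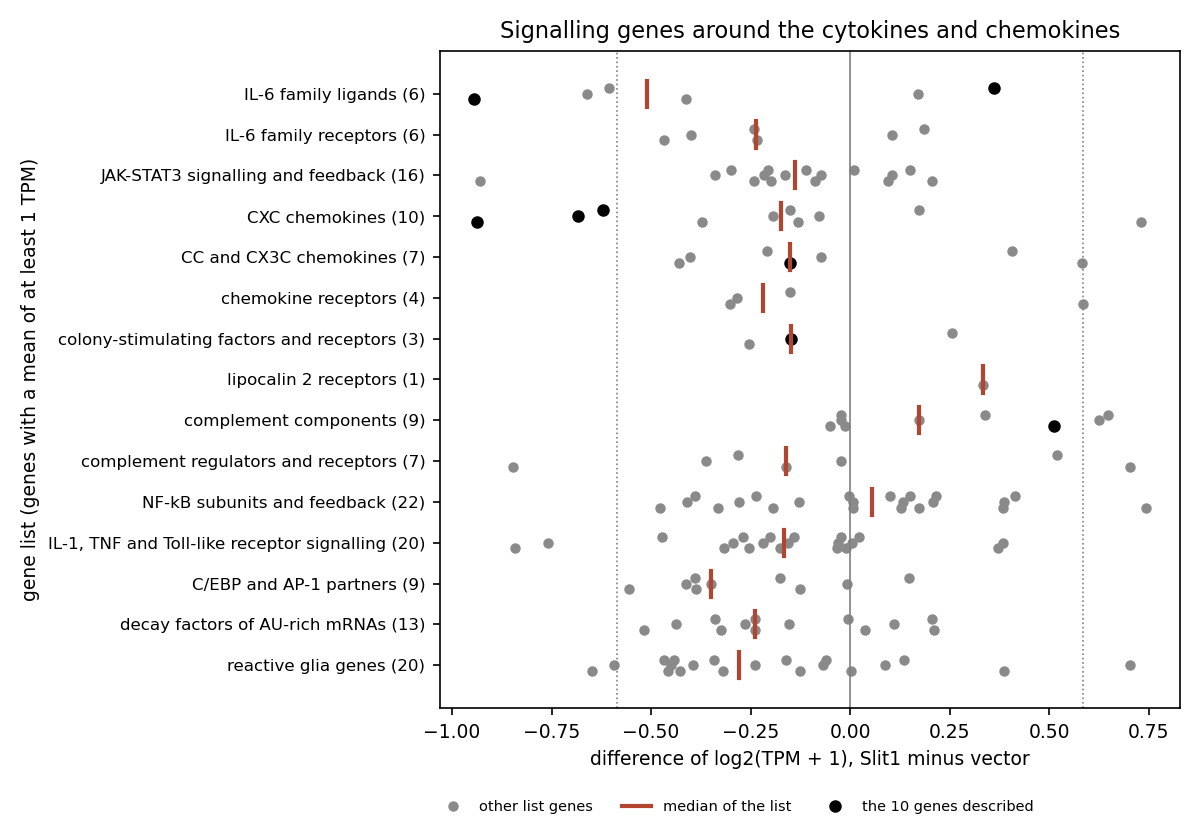
Log2(TPM + 1) in Slit1 minus that in vector for each gene with a mean of at least 1 TPM in 15 gene lists; black points are the genes described, red bars the list medians, and dotted lines 1.5-fold. The lowest median is that of the interleukin-6 family ligands (-0.51 here, and -0.41 in CPM), and the NF-kB list is centred near 0 (0.05).

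Most genes of the pathways that induce these cytokines were within 1.5-fold, as were 12044 of all 13175 genes. Over all genes 3.74% were called higher and 4.84% lower. Of 22 NF-kB subunits and feedback genes 1 was called higher and 0 lower, with a median of 0.05. Nfkbib, an inhibitor of NF-kB, had 65.2 TPM in Slit1 and 38.5 TPM in vector, 1.69-fold higher with an interval of 1.505 to 1.903. Tnfaip3, a feedback inhibitor that NF-kB induces, had 19.8 TPM in Slit1 and 26.6 TPM in vector. Cyld, a deubiquitinase that dampens NF-kB signalling, had 11.5 TPM in Slit1 and 16.5 TPM in vector, and the adaptor Traf1 had 4.30 TPM in Slit1 and 2.98 TPM in vector. Among 20 measured genes of interleukin-1, TNF and Toll-like receptor signalling 2 were called lower and 0 higher (median -0.17; 1 lower in CPM). Tlr3, the sensor of double-stranded RNA, had 4.91 TPM in Slit1 and 9.59 TPM in vector, 1.95-fold lower with an interval of 1.63 to 2.35. Il1rap, the accessory chain of the interleukin-1 receptor, had 25.6 TPM in Slit1 and 44.0 TPM in vector but 1398 counts in Slit1 and 1634 in vector, a ratio of 0.847 in CPM. Tnfrsf1b, a TNF receptor, had 2.67 TPM in Slit1 and 4.09 TPM in vector, and Tlr2, a sensor of bacterial lipoproteins, had 10.8 TPM in Slit1 and 8.01 TPM in vector. Tnf had 1.99 counts in Slit1 and 9.96 in vector.

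Among C/EBP and AP-1 factors and the proteins that control decay of AU-rich cytokine mRNAs no gene passed the limit, and 12044 of all 13175 genes did not. Of 9 C/EBP and AP-1 genes 0 were called and 8 lay below 0, where 7383 of all 13175 genes did. The median of the 9 was -0.35 in TPM, -0.24 in CPM and -0.23 with TMM factors of edgeR. Fosl1, an AP-1 subunit, had 36.5 TPM in Slit1 and 54.1 TPM in vector, and Fosl2 had 15.0 TPM in Slit1 and 20.3 TPM in vector. Cebpa had 14.01 TPM in Slit1 and 18.7 TPM in vector, and Cebpg had 43.8 TPM in Slit1 and 57.6 TPM in vector. Of 13 decay factors 0 were called, with a median of -0.24 in TPM, -0.06 in CPM and -0.05 with TMM factors. Zfp36l1, which promotes decay of AU-rich mRNAs, had 208.7 TPM in Slit1 and 299 TPM in vector, and its relative Zfp36l2 had 63.4 TPM in Slit1 and 80.5 TPM in vector. Zc3h12c, a ribonuclease, had 8.93 TPM in Slit1 and 12.4 TPM in vector, and Rc3h1 (roquin), which marks cytokine mRNAs for decay, had 13.3 TPM in Slit1 and 16.9 TPM in vector.

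Other reactive glia genes are given as a further list, since lipocalin 2 and C3 are widely used marks of reactive astrocytes. Of 20 measured genes 1 was called higher and 2 lower, with a median of -0.28 (-0.16 when a mean of 5 TPM was required), and in CPM and FPKM 0 were lower. The higher one was Serping1, given above. Cd14, a co-receptor for bacterial lipid, had 3.56 TPM in Slit1 and 6.15 TPM in vector, and Aspg had 2.11 TPM in Slit1 and 3.69 TPM in vector. Osmr, also in this list, is given with the receptors. Of the 20 genes 15 lay below 0, as did 7383 of all 13175 genes, and Gfap was among the listed genes above it.

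The count of called genes depended on the unit. In FPKM Cxcl2, Cxcl6 and Lif were lower, where 2.80% of all 12250 genes tested were, and Lcn2 was higher, where 3.32% were. In CPM, only Cxcl2 was lower (3.57% of 13254 genes were) and only Lcn2 was higher (3.92%). With TMM factors of edgeR the same genes were called, Cxcl2 lower (3.46% of all genes) and Lcn2 higher (4.06%). Over all genes the share of calls that were higher was 43.6% in TPM, 54.3% in FPKM and with the median gene set to 0, and 54.0% with TMM factors.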

How the data were processed

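RNA of 2 libraries was sequenced, 1 from rat OPCs given Slit1 and 1 from OPCs given vector. The authors deposited FPKM, TPM and estimated counts per gene, per the file headers, and the counts need not be whole. Per the submitters' processing notes the genome build was mRatBN7.2; aligner, counter, annotation, strand handling and filters were not given in the sources used here.

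From the deposited TPM, differences of log2(TPM + 1) were computed with Python 3.11.15, pandas 2.3.3 and numpy 2.4.6 over the genes that averaged 1 TPM or more. Exact (Clopper-Pearson) 95% intervals used counts rounded to whole numbers, and a count of 0 allows 3 (scipy 1.17.1). TMM factors came from edgeR 4.0.16. The calculation was tested on simulated data, and no p-value was computed. RefSeq promoters (GRCr8) were matched by NCBI gene number.

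The 10 genes and all lists were chosen with earlier results of these data known. The rule named every member, Slit1, all detected genes of the interleukin-6 family, colony-stimulating factor and lipocalin 2 receptor lists, and up to 4 genes with the largest absolute difference from each other list. Cxcl3, C3ar1, Tnf and the marker genes with values were added after their values were seen. Of the genes under the rule, 1 is not reported here. Alternatives changed the pseudocount, minimum, unit, centring and fold limit.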

Additional observations from a re-analysis of the deposited data

How the results depend on the processing

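Under 8 alternatives the difference of each of the 10 genes was recomputed, 80 values in all: 67 stayed within the counting interval of the TPM ratio, 13 left it, and 0 called values changed sign. The alternatives that changed only the minimum cannot alter a gene's own difference, so their values were among the 67 by construction. The number of members called lower, 4 in TPM, was 1 in CPM, 1 with TMM factors, 1 when the whole counting interval had to pass 1.5-fold (Lif) and 0 at a limit of 2-fold. That interval of Lif is on the TPM scale and carries the unequal implied lengths, while in CPM Lif was 1.41-fold lower. The share of all genes that pass the interval rule is not given here. The number called higher, 1, was 0 at 2-fold and 1 in the other alternatives. Lif, at -0.95 in TPM, was at -0.49 in CPM and -0.48 with TMM factors, where the counts carry no division by length. Of 240 recomputed counts of list members 32 differed by over 1.5 times. Depth limited Il6, Osm, Il27, Tnf and most of the chemokine receptors that were in the table. No paired analysis was possible because each group had 1 library.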

Other observations

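Around the CXC chemokine cluster, the neighbouring protein-coding genes in RefSeq order were also read, chosen after their values were seen. Rassf6, the next protein-coding gene beyond Cxcl6, had 6.99 TPM in Slit1 and 11.1 TPM in vector, a difference of -0.60 on the log2(TPM + 1) scale. Mthfd2l, next to Cxcl2 on the other side, had 5.72 TPM in Slit1 and 5.41 TPM in vector.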
